A study of Mus musculus with 4 samples.

Results

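The mitochondrial β-oxidation enzymes were followed here as 10 genes, Cpt1a, Cpt2, Slc25a20, Acadl, Acadm, Acadvl, Hadha, Hadhb, Eci1 and Ech1. These were taken by gene symbol out of 24346 gene symbols listed in each library, and were chosen with earlier results of these data known. Each was listed once in every library. All 10 were among the 10686 genes that averaged 1 FPKM or more over the 4 libraries, where FPKM is the number of fragments normalised to transcript length and to the mapped fragments of the library. Liver RNA of male ob/ob mice, which lack functional leptin and are obese, was sequenced with 1 library for each of 4 diets given for 4 weeks from 6 weeks of age. In CD the mice received regular chow, in WD a western type diet rich in fat and cholesterol, and in CD+7KC and WD+7KC the same diets with 0.01% 7-ketocholesterol (7KC), an oxidised form of cholesterol found in food. All 4 diets, the controls included, contained 1% cholesterol, so no group was free of added cholesterol. The number of mice behind a library was not given in the sources used here. With 1 library per group no difference has a replicate check, no test was possible and no p-value is given. The comparisons made were WD+7KC with WD, CD+7KC with CD, WD with CD, and WD+7KC with CD+7KC, so each library entered 2 comparisons.

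Mitochondrial β-oxidation shortens fatty acids step by step to acetyl-CoA, and the liver uses it in fasting to make energy and ketone bodies. Long-chain fatty acids reach the inside of the mitochondrion as carnitine esters. CPT1A on the outer membrane makes the ester, SLC25A20 carries it across the inner membrane and CPT2 turns it back into acyl-CoA. An acyl-CoA dehydrogenase chosen by chain length then makes the first double bond, the mitochondrial trifunctional protein performs the remaining steps for long chains, and auxiliary isomerases shift the double bonds of unsaturated fatty acids into place. Many of these genes are known targets of the fatty acid receptor PPARα in liver, and malonyl-CoA, the first product of fatty acid synthesis, inhibits CPT1A.

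The reads behind a value set its precision. The FPKM values of weakly expressed genes fell on steps that corresponded to an estimated 9400000 (WD) to 12090000 (WD+7KC) fragments per library, with 10940000 for CD and 10970000 for CD+7KC. At these depths between 1689 and 7092 reads lay behind a member's value, and the 95% counting interval of a log2 fold change was between 0.048 and 0.097 wide on either side. These intervals cover counting error only, not the variation between mice. The FPKM sum of all genes was 715605 (CD), 696062 (CD+7KC), 699534 (WD) and 602059 (WD+7KC). Because the sum of WD+7KC was the lowest, changes are given on the deposited FPKM scale and, for WD+7KC, mostly also after rescaling the libraries to the same sum, called equal sums here. For a single gene, equal sums added 0.22 to a log2 fold change of WD+7KC relative to WD, 0.21 to one relative to CD+7KC, and 0.04 and 0.03 in CD+7KC and WD relative to CD. That rescaling moved the median change of all 10686 genes on the log2 scale from -0.03 to 0.18 in WD+7KC relative to WD, and from -0.02 to 0.18 in WD+7KC relative to CD+7KC.

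The liver label was checked against 10 hepatocyte markers, none of which was at 0 in any library and which summed to between 42902 and 54104 FPKM. Of the 4 fat cell markers, Plin1 was at 0 in the 4 libraries and Adipoq at or below 0.0885 FPKM, and Fabp4 and Cidec made up nearly the whole sum of 182 to 314 FPKM. The members summed to 1993 (CD), 1978 (CD+7KC), 2196 (WD) and 1880 FPKM (WD+7KC), or 0.279%, 0.284%, 0.314% and 0.312% of all FPKM. The summed level was thus highest in WD and lowest in WD+7KC, while the share of all FPKM was close to equal in these 2 libraries. In bulk liver RNA, fewer cells of a type and less RNA per cell cannot be told apart.

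The levels of the members spanned 79.6 to 522 FPKM, which placed them between ranks 188 and 1035 of the genes in a library. Ech1 was the most abundant in all 4 libraries, followed by Acadm, and Cpt2 was the least abundant in all 4. The order between them was less distinct. In CD, 3 of the 9 neighbouring pairs had overlapping counting intervals, namely Acadvl and Eci1, Hadhb and Acadl, and Hadha and Slc25a20. In CD+7KC these were Acadvl and Eci1, and Slc25a20 and Hadha, in WD only Slc25a20 and Hadha, and in WD+7KC Acadl and Eci1, and Hadha and Cpt1a.

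**Figure D1:**
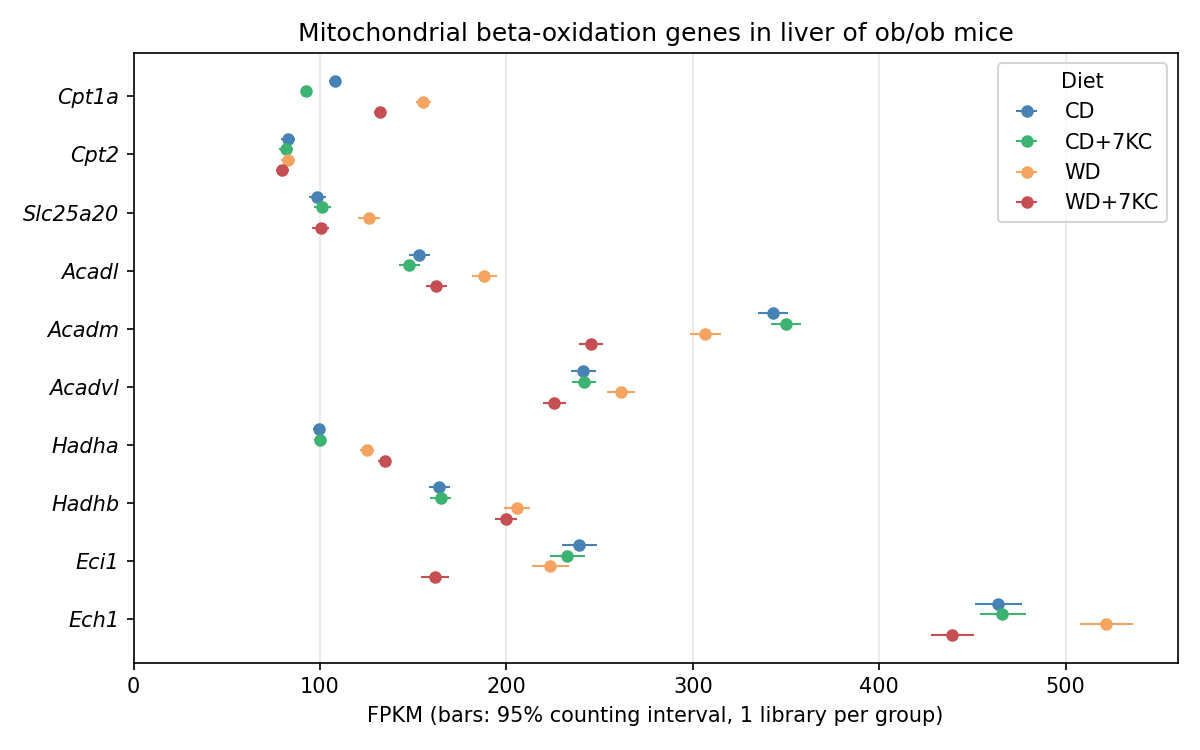
FPKM of the 10 genes in each of the 4 libraries (1 point per library, bars for the 95% counting interval), ordered by role. Ech1 reached 439 to 522 FPKM and Cpt2 stayed between 79.6 and 82.8 FPKM.

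Cpt1a, which encodes the liver carnitine palmitoyltransferase that controls entry of long-chain fatty acids, lies on chromosome 19 (3322334 to 3385733, GRCm38). Its level was 108 (CD), 92.5 (CD+7KC), 155 (WD) and 132 FPKM (WD+7KC). Both WD libraries were above both CD libraries, and within each diet the 7KC library was the lower. The share of all genes with such an order is not given here, for this gene or for others described in this way. The log2 fold change was 0.53 (95% counting interval 0.47 to 0.58) in WD relative to CD and 0.51 (0.46 to 0.57) in WD+7KC relative to CD+7KC, the largest increase among the members in both. With 7KC it was -0.22 (-0.28 to -0.16) on CD and -0.24 (-0.29 to -0.19) on WD. At equal sums the CD value stayed at -0.18 (-0.24 to -0.12), whereas the WD value was -0.02 and its interval included 0.

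The RefSeq window around the start of Cpt1a is shown because this gene differed most between WD and CD. It covers chr19:3323051-3323284 on the plus strand of GRCm38.p6, the bases of the window outside annotated exons, and lies within the GENCODE gene span, whose first transcript begins further upstream. Capitals mark AGGTCA, the half-site of nuclear receptors such as PPARα, and GGGCGG, the core letters of an SP1 box, on either strand.
Cpt1a: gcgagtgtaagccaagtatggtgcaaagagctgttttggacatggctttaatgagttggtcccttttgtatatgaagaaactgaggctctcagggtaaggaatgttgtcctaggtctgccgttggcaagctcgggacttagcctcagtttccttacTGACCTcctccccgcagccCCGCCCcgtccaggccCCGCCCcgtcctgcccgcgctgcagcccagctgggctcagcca
AGGTCA (here as TGACCT on the printed strand) lay 94 to 89 bases before the start. The same letters were found in the windows of 3 of the 10 members, Cpt1a, Acadm and Acadvl, and in 16.0% of all 27025 windows searched. GGGCGG was found in 8 of the 10 against 35.9% of all. The windows of Hadha and Hadhb overlap by 228 bases, and the only GGGCGG of Hadha is also counted for Hadhb. CCAAT, another common promoter motif, was found only in the window of Cpt1a among the members, against 37.9% of all. GGGCGG and CCAAT were chosen after the sequences were seen, so their counts describe these windows only. Both strands were searched. Neither the direct repeat of AGGTCA with 1 base between, which PPARα and RXR are known to bind, nor the ERRα letters TCAAGGTCA, both of which contain AGGTCA, were found in a member's window, against 0.0444% and 0.407% of all. The window reached only from 250 bases before to 50 bases after the start, so their absence describes these bases alone.

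Cpt2, the inner membrane transferase (chromosome 4, 107903981 to 107923610), was at 82.8 (CD), 81.7 (CD+7KC), 82.7 (WD) and 79.6 FPKM (WD+7KC). On the deposited scale no other member varied so little, while at equal sums Acadvl varied less. The log2 fold change was -0.06 (-0.15 to 0.04) in WD+7KC relative to WD, and on the deposited scale the interval included 0 in each of the 4 comparisons. At equal sums it was 0.16. The ratio of Cpt1a to Cpt2, which does not depend on the scaling of a library, was 1.30 (CD), 1.13 (CD+7KC), 1.88 (WD) and 1.66 (WD+7KC). Slc25a20, the carnitine and acylcarnitine carrier (chromosome 9, 108662088 to 108684641), was at 98.5 (CD), 101 (CD+7KC), 126 (WD) and 100.3 FPKM (WD+7KC). WD alone stood above the other 3 libraries on the deposited scale, whereas at equal sums both WD libraries lay above both CD libraries. Its log2 fold change was 0.36 (0.26 to 0.45) in WD relative to CD and -0.33 (-0.42 to -0.24) in WD+7KC relative to WD, the latter -0.11 at equal sums.

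The 3 dehydrogenases did not move together. Acadl, the long-chain enzyme (chromosome 1, 66830839 to 66863277), was at 153 (CD), 148 (CD+7KC), 188 (WD) and 162 FPKM (WD+7KC). The WD library was again the highest, with a log2 fold change of 0.30 (0.22 to 0.37) relative to CD and -0.21 (-0.28 to -0.14) for WD+7KC relative to WD, the latter 0.01 at equal sums. Acadm, the medium-chain enzyme (chromosome 3, 153922357 to 153944632), was at 343 (CD), 350.0 (CD+7KC), 307 (WD) and 245 FPKM (WD+7KC). On the deposited scale both WD libraries were below both CD libraries, the opposite of Cpt1a and Acadl, for which both WD libraries were above both CD libraries. The log2 fold change was -0.16 (-0.21 to -0.11) in WD relative to CD, though 0.01 when scaled to the hepatocyte markers. It was -0.51 (-0.56 to -0.46) in WD+7KC relative to CD+7KC, and -0.32 (-0.38 to -0.27) in WD+7KC relative to WD, or -0.30 and -0.10 at equal sums. The ratio of Acadm to Acadl was accordingly 2.24 (CD), 2.37 (CD+7KC), 1.63 (WD) and 1.51 (WD+7KC). Acadvl, the very-long-chain enzyme on the inner membrane (chromosome 11, 70010183 to 70015411), was at 241 (CD), 241 (CD+7KC), 261 (WD) and 226 FPKM (WD+7KC). Its log2 fold change was 0.12 (0.06 to 0.17) in WD relative to CD and -0.21 (-0.27 to -0.16) in WD+7KC relative to WD, the latter 0.0048 at equal sums. Acadvl shares 1151 exonic bases with Dvl2 on the other strand, and Dvl2 was listed at 0.861 to 1.13 FPKM.

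The RefSeq window of Acadm is printed because this gene was the only dehydrogenase lower in both WD libraries on the deposited scale. It covers chr3:153944644-153944893 of GRCm38.p6, read on the minus strand, with AGGTCA in capitals (as TGACCT on the printed strand, 249 to 244 bases before the start).
Acadm: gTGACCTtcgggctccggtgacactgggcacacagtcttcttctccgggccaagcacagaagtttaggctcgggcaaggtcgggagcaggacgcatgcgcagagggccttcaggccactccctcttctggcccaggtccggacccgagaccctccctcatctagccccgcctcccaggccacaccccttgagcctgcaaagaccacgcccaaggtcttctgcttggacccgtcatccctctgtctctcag
It holds AGGTCA but not GGGCGG, and the window of Eci1 printed with the isomerases holds GGGCGG but not AGGTCA.

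Hadha and Hadhb encode the α and β subunits of the trifunctional protein, which carry the hydratase and 3-hydroxyacyl-CoA dehydrogenase activities and the thiolase activity. The genes start back to back on chromosome 5, Hadha on the minus strand (30118304 to 30155162) and Hadhb on the plus strand (30155248 to 30184593). The 85 bases between them are chr5:30155163-30155247, shown on the plus strand of GRCm38.p6 with GGGCGG in capitals because a single stretch lies before both genes.
Hadha and Hadhb: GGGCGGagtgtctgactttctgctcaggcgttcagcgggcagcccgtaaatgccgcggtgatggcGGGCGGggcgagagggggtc
Hadha was at 99.5 (CD), 99.99 (CD+7KC), 125 (WD) and 135 FPKM (WD+7KC). Hadhb was at 164 (CD), 165 (CD+7KC), 206 (WD) and 199.9 FPKM (WD+7KC). Both subunits were higher in both WD libraries than in both CD libraries. In WD relative to CD the log2 fold change was 0.33 for Hadha (0.27 to 0.39) and 0.33 for Hadhb (0.26 to 0.39). In WD+7KC relative to CD+7KC it was 0.43 (0.37 to 0.49) for Hadha and 0.28 (0.21 to 0.34) for Hadhb, or 0.64 and 0.49 at equal sums.

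On the deposited scale Hadha alone among the members was higher in WD+7KC than in WD. Its log2 fold change was 0.10 (0.05 to 0.16), and 0.32 at equal sums. Hadhb was at -0.04 (-0.10 to 0.02), and 0.18 at equal sums. The ratio of Hadha to Hadhb was 0.606 (CD), 0.607 (CD+7KC), 0.610 (WD) and 0.673 (WD+7KC). The first 3 libraries were therefore nearly equal and WD+7KC was the highest. Hadha shares 75 exonic bases with Garem2 on the other strand, and whether the FPKM calculation used the strand was not given in the sources used here.

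The isomerases Eci1 and Ech1 handle double bonds that the main cycle cannot. Eci1 (chromosome 17, 24426641 to 24439348) was at 239 (CD), 232 (CD+7KC), 223 (WD) and 162 FPKM (WD+7KC). The WD+7KC library was the lowest, and the other 3 lay close together. The log2 fold change of -0.47 (-0.56 to -0.37) in WD+7KC relative to WD was the largest decrease among the members, and it remained at -0.25 (-0.34 to -0.16) at equal sums. Relative to CD+7KC it was -0.52 (-0.61 to -0.44), or -0.32 at equal sums. Ech1 (chromosome 7, 28825217 to 28832247) was at 464 (CD), 466 (CD+7KC), 522 (WD) and 439 FPKM (WD+7KC). Its log2 fold change was -0.25 (-0.30 to -0.19) in WD+7KC relative to WD, but -0.03 at equal sums. The ratio of Eci1 to Ech1 was 0.515 (CD), 0.499 (CD+7KC), 0.428 (WD) and 0.368 (WD+7KC).

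The window of Eci1, the member with the largest decrease on WD+7KC, covers chr17:24426433-24426640 on the plus strand of GRCm38.p6, with GGGCGG in capitals.
Eci1: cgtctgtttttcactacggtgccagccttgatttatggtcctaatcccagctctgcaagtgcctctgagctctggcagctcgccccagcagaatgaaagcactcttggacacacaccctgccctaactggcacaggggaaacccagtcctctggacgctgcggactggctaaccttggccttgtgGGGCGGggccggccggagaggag
The GC content of the members' windows had a median of 59.7% (50.7% to 70.3%), against a median of 52.7% over all windows.

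Compared as a group between WD+7KC and WD, 9 of the 10 members were lower and Hadha alone was higher, against 54.5% of all genes that were lower and 45.3% that were higher. The median log2 fold change was -0.22, against -0.03 over all genes. Slc25a20, Acadm and Eci1 were below -0.25, or 3 of 10 against 19.6% of all genes. None was above 0.25, against 19.4%. Among genes averaging 10 FPKM or more, as all members did, 25.6% were below -0.25 and 6.74% above 0.25. No member was past 1 in either direction, against 2.71% above 1 and 0.767% below -1 of all genes. The counting interval lay below 0 for 7 members, above 0 for Hadha and included 0 for Cpt2 and Hadhb. The share of all genes with such intervals is not given here. At equal sums the picture was different. There 5 members were lower and 5 higher, with a median of -0.0073 against 0.18 over all genes, and 23.7% of all genes were lower. Eci1 was then the only member below -0.25, against 5.75% of all genes, and Hadha the only one above 0.25, against 40%. On this scale the counting interval lay below 0 for 3 members, above 0 for 3 and included 0 for 4.

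**Figure D2:**
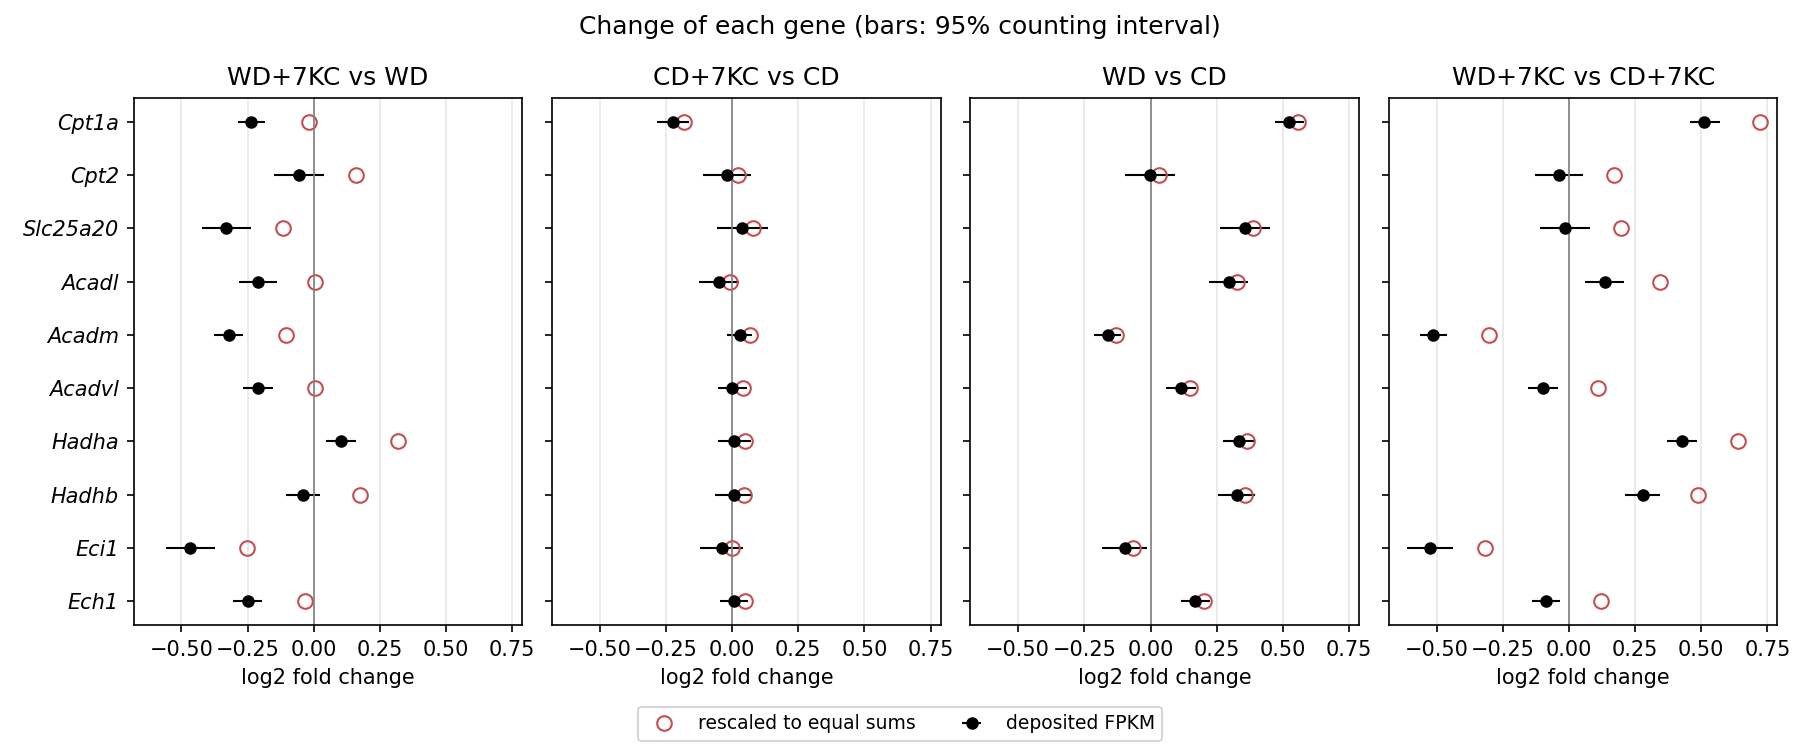
Log2 fold change of each of the 10 genes in the 4 comparisons, on the deposited FPKM scale (with the 95% counting interval) and at equal sums. In WD+7KC relative to WD the values range from -0.47 for Eci1 to 0.10 for Hadha on the deposited scale, and from -0.25 for Eci1 to 0.32 for Hadha at equal sums (open circles).

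The hepatocyte markers moved alongside the members in that comparison. Of the 10 markers, 9 were lower in WD+7KC, against 54.5% of all genes, or 5 of 10 against 23.7% at equal sums. Their median log2 fold change was -0.23, or -0.01 at equal sums, close to the members' own medians. The 11 macrophage and Kupffer cell markers summed to 246 (CD), 344 (CD+7KC), 387 (WD) and 710 FPKM (WD+7KC), and all 11 were higher in WD+7KC than in WD. The 6 endothelial markers summed to 55.0, 80.2, 43.5 and 123 FPKM in the same order, and 6 of 6 were higher. The summed levels of stellate cell markers (141 to 177 FPKM), bile duct markers (2.42 to 3.78 FPKM) and lymphocyte markers (1.55 to 7.08 FPKM) did not have the order of the members' sums. The hepatocyte markers did, with sums of 52480 (CD), 44703 (CD+7KC), 54104 (WD) and 42902 FPKM (WD+7KC). So did the erythroid markers, with sums of 176, 136, 177 and 93.5 FPKM in the same order, but their genes differed. Hba-a1 was at 89.8, 54.5, 146 and 70.0 FPKM, and Alas2 at 86.5, 81.3, 30.9 and 23.3 FPKM. Ms4a1 and Slc4a1 were at 0 in 1 or more libraries. The part of these cell types in the members' lower values was not tested.

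With 7KC on CD, the members hardly differed. Of the 10 members 4 were lower and 6 higher, against 51.7% and 48.1% of all genes, and the median log2 fold change was 0.0038. On the deposited scale Cpt1a was the only member whose counting interval excluded 0. The other 9 lay between -0.05 for Acadl and 0.04 for Slc25a20. At equal sums the interval of Acadm (0.02 to 0.12) excluded 0 too. No member was past 0.25 in either direction, against 16.2% of all genes above 0.25 and 15.2% below -0.25. Among genes averaging 10 FPKM or more these shares were 8.46% and 11%. The macrophage marker sum was higher here too, with 10 of the 11 markers higher than in CD, while 7 of the 10 hepatocyte markers were lower, with a median of -0.12.

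The WD library had more of most members than the CD library. Of the 10 members 7 were higher and 3 lower, against 49.1% and 50.7% of all genes, with a median log2 fold change of 0.23 against -0.0059. Cpt1a, Slc25a20, Acadl, Hadha and Hadhb were above 0.25, or 5 of 10 against 24.1% of all genes. None was below -0.25, against 24.7%. The median of the hepatocyte markers was -0.12, opposite in sign to that of the members. With 7KC in both diets the difference was mixed, with 4 members higher and 6 lower, against 47.2% and 52.6% of all genes, and a median of -0.03. Cpt1a, Hadha and Hadhb were above 0.25, or 3 of 10 against 25.5% of all genes, and Acadm and Eci1 were below -0.25, or 2 of 10 against 26.9%. At equal sums 8 members were higher, against 69.2% of all genes, and the median of 0.18 was that of all genes.

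**Figure D3:**
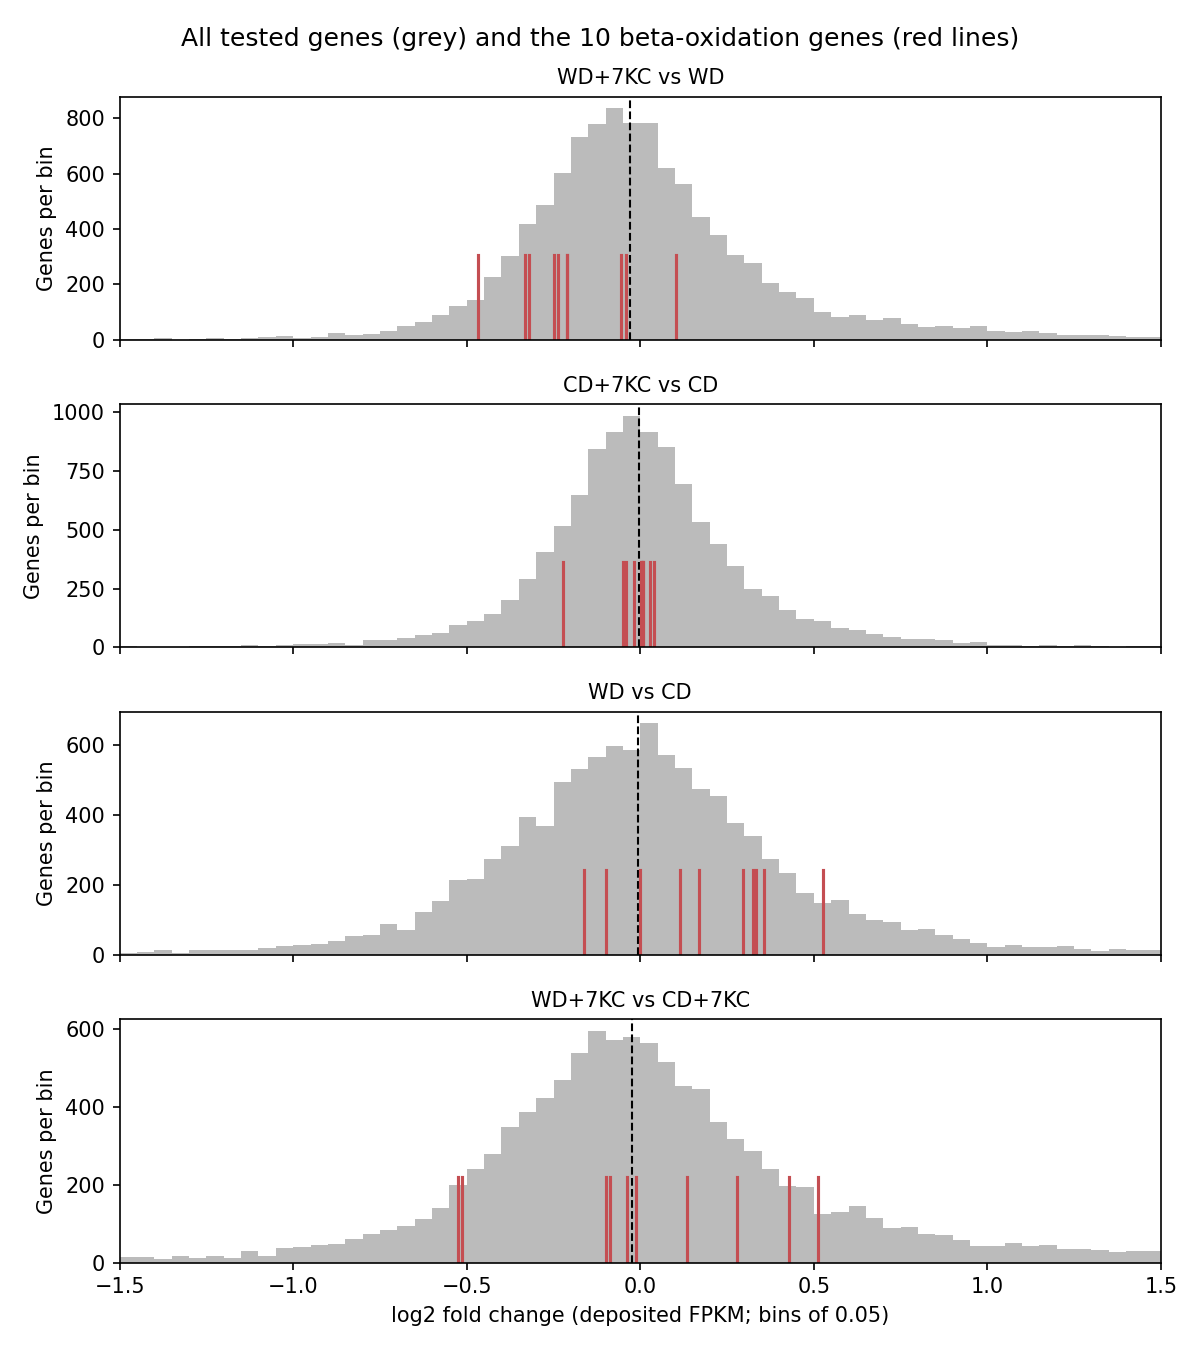
Log2 fold changes of the 10 genes (red lines) over a histogram of all 10686 genes averaging 1 FPKM or more (grey, shown from -1.5 to 1.5, dashed line at their median), in each comparison on the deposited FPKM scale. The members' median is -0.22 in WD+7KC relative to WD, 0.23 in WD relative to CD, and near 0 in the other 2 comparisons.

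The log2 fold change with 7KC on WD minus that on CD was below 0 for 9 of the 10 members on the deposited scale, against 52.8% of all genes, with a median of -0.19 against -0.02. At equal sums it was below 0 for 5 of the 10, against 32.5% of all genes, with a median of -0.01 against 0.15. On the deposited scale this difference was -0.43 for Eci1, -0.37 for Slc25a20, -0.35 for Acadm and -0.26 for Ech1. For Cpt1a it was -0.01, and Hadha alone had a positive difference, of 0.096. With 1 library per group the difference itself could not be tested.

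Relative to each other, the carnitine shuttle and the trifunctional protein had larger shares of the members' sum in both WD libraries than in both CD libraries, and the dehydrogenases and isomerases smaller shares. The carnitine shuttle made up 14.5% (CD), 13.9% (CD+7KC), 16.6% (WD) and 16.6% (WD+7KC) of the members' summed FPKM. The trifunctional protein made up 13.2%, 13.4%, 15.1% and 17.8% in the same order. The dehydrogenases made up 37.0%, 37.4%, 34.4% and 33.7%, and the isomerases 35.3%, 35.3%, 33.9% and 31.9%. Within these classes Acadm went from 17.2% (CD) to 14.0% (WD) and Eci1 from 11.99% to 10.2%, while Acadl went from 7.68% to 8.56% and Ech1 was at 23.3% and 23.8%. The summed FPKM of both classes was higher in WD (756 and 745) than in CD (737 and 703). These shares do not depend on the scaling of a library, and CD and CD+7KC were alike in all but the shuttle, where Cpt1a was lower. On the log2 scale relative to the median member of its library, Acadm was at 1.11 in CD and 0.60 in WD+7KC, Eci1 at 0.59 and -0.0042, and Hadha at -0.67 and -0.27.

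**Figure D4:**
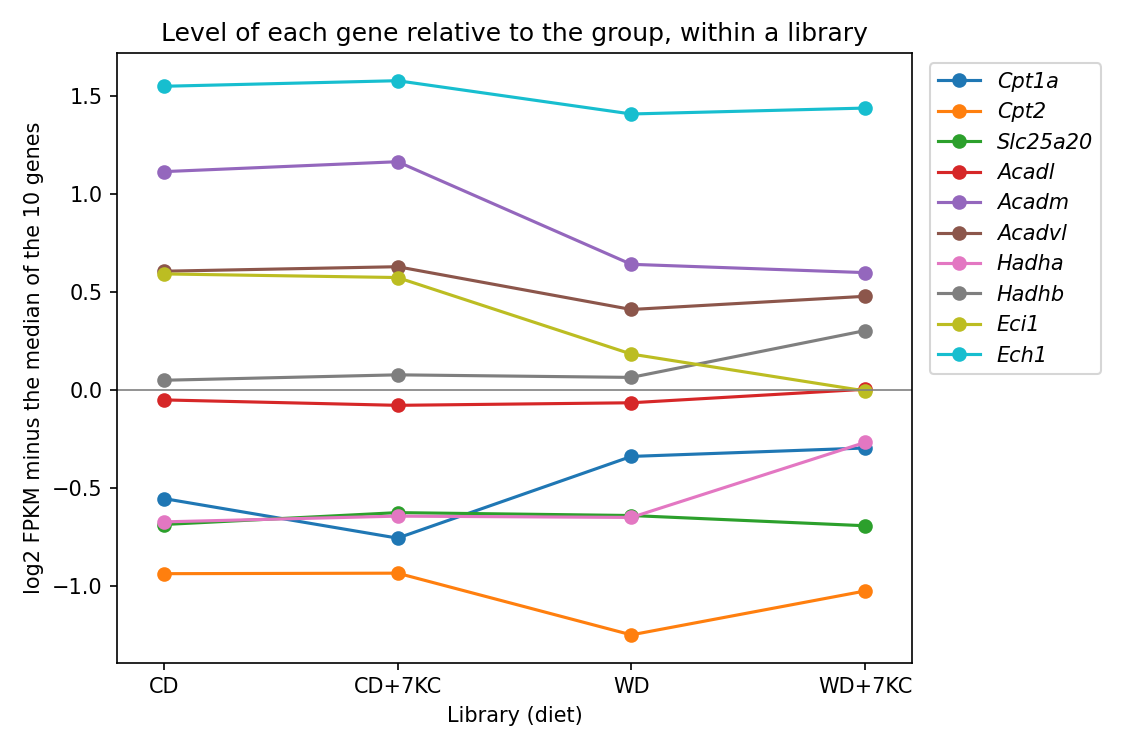
Log2 level of each of the 10 genes minus the median of the 10 in the same library, for CD, CD+7KC, WD and WD+7KC. Lines join the values of 1 gene and imply no order. Acadm and Eci1 are lower in both WD libraries than in both CD libraries, Cpt1a is higher in both, and Hadha is higher in WD+7KC.

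Other enzymes of the pathway were described from lists. Acads, Echs1, Hadh, Decr1, Etfa, Etfb and Etfdh, which serve short chains, double-bond reduction and electron transfer in the mitochondrion, were all lower in WD+7KC than in WD, 7 of 7 against 54.5% of all genes, or 5 of 7 against 23.7% at equal sums. Their median log2 fold change was -0.34, or -0.13 at equal sums. Hadh, the short-chain 3-hydroxyacyl-CoA dehydrogenase, was at 355 (CD), 353 (CD+7KC), 369 (WD) and 288 FPKM (WD+7KC), with a log2 fold change of -0.36 (-0.41 to -0.30). Echs1, the short-chain hydratase, was at 242 FPKM for CD, 231 for WD and 181 for WD+7KC, and its log2 fold change was -0.35 (-0.43 to -0.28). Etfdh, which passes the electrons on to ubiquinone, was already lower in WD (162 FPKM) than in CD (199 FPKM). In WD relative to CD 5 of these 7 genes were higher, against 49.1% of all genes, with a median of 0.06.

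The peroxisomal enzymes were also all lower in WD+7KC than in WD, 10 of 10 against 54.5% of all genes, or 8 of 10 against 23.7% at equal sums. Their median log2 fold change was -0.30, or -0.08 at equal sums. Unlike most members, 9 of these 10 genes were also lower in WD than in CD, against 50.7% of all genes. The median was -0.13, a difference smaller than the 0.17 by which scaling to the hepatocyte markers raised every value of this comparison. Decr2, the peroxisomal dienoyl-CoA reductase, had the lowest value in WD+7KC relative to WD, -0.52 (-0.60 to -0.45), at 145 (CD), 137 (CD+7KC), 172 (WD) and 120 FPKM (WD+7KC). Acaa1a and Acaa1b are near-identical copies, so their separate values are uncertain. The 4 ketogenic enzymes were all lower in WD+7KC than in WD on both scales, 4 of 4 against 54.5% of all genes, or 23.7% at equal sums. Their median was -0.33, or -0.11 at equal sums. Of the 16 enzymes of the citric acid cycle 13 were lower, against 54.5% of all genes, or 4 against 23.7% at equal sums, close to that share. Their median was -0.11, or 0.10 at equal sums, against -0.03 and 0.18 over all genes. Sdhb, a subunit of succinate dehydrogenase, was the lowest at -0.36, and Ogdh, of the oxoglutarate dehydrogenase complex, the highest at 0.11.

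Among the 9 tested genes of carnitine and malonyl-CoA metabolism, 6 were lower in WD+7KC than in WD, against 54.5% of all genes. At equal sums 3 of 9 were lower, against 23.7%. The median was -0.14, or 0.07 at equal sums. Crot, the peroxisomal carnitine octanoyltransferase, was at 276 (CD), 253 (CD+7KC), 269 (WD) and 183 FPKM (WD+7KC), the largest decrease of the list (-0.55, -0.60 to -0.51). Bbox1, which performs the last step of carnitine synthesis, was at 117, 117, 114 and 78.4 FPKM. Acaca, which makes malonyl-CoA for fatty acid synthesis, was at 35.7 (CD), 36.9 (CD+7KC), 25.3 (WD) and 35.5 FPKM (WD+7KC), so that WD alone was low. Acacb, whose malonyl-CoA is made at the mitochondrion, was at 16.2, 16.3, 16.6 and 19.6 FPKM, and the ratio of Cpt1a to Acacb was 6.65, 5.66, 9.38 and 6.72. Cpt1b, the muscle form, was at most 2.55 FPKM, against 92.5 FPKM or more for Cpt1a, and Tmlhe was listed at 0 in all 4 libraries.

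**Figure D5:**
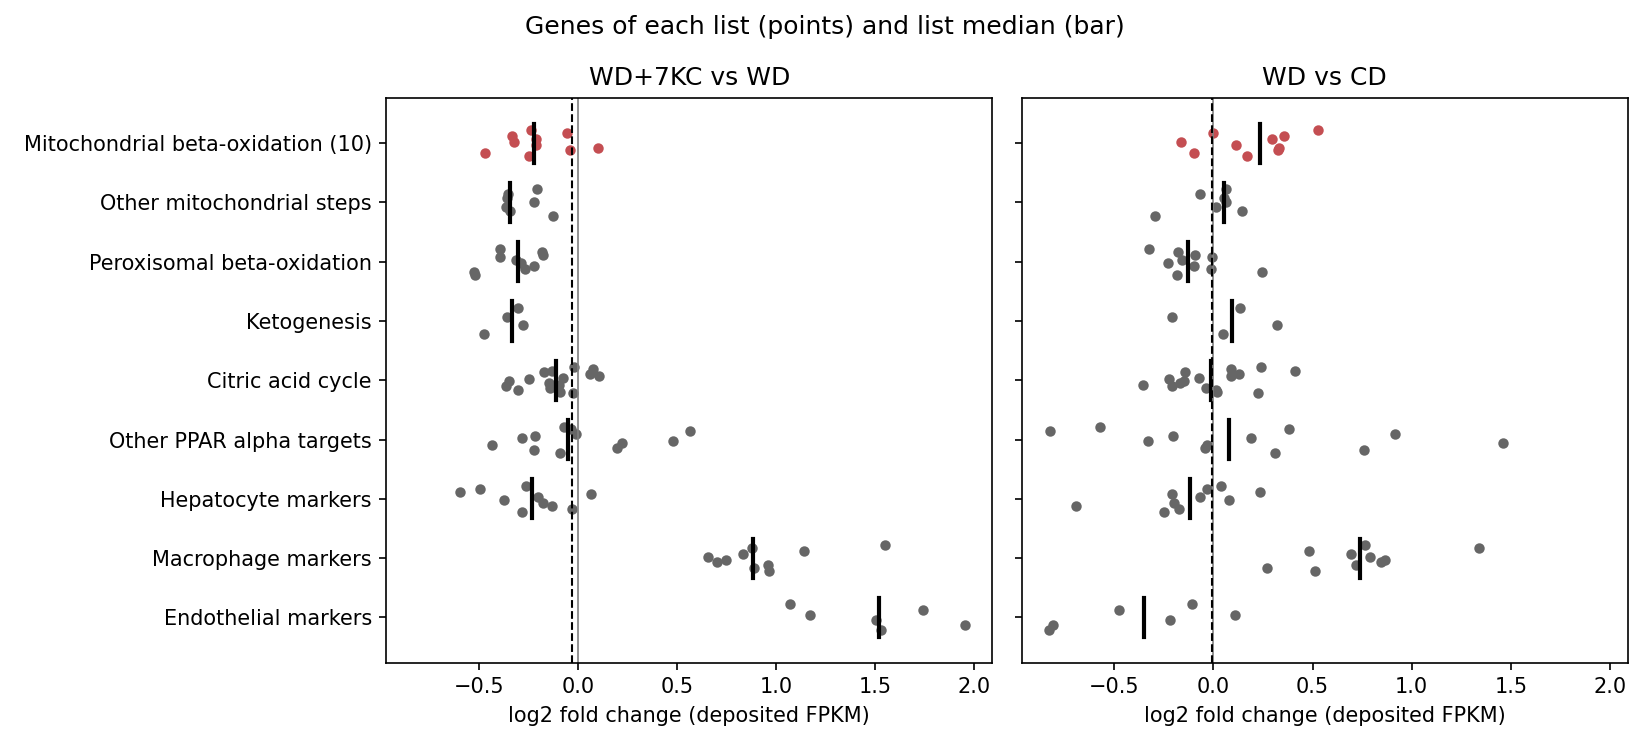
Log2 fold change of every tested gene (points) and the median (bar) for the members, 5 other gene lists and 3 marker lists in WD+7KC relative to WD and in WD relative to CD, on the deposited FPKM scale, with a dashed line at the median of all genes. In WD+7KC relative to WD the medians are -0.22 for the members, -0.34 for the other mitochondrial enzymes, -0.30 for the peroxisomal enzymes and -0.23 for the hepatocyte markers.

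Of 9 regulators of the pathway, 6 were lower in WD+7KC than in WD, against 54.5% of all genes, or 2 of 9 against 23.7% at equal sums. The median was -0.09, or 0.12 at equal sums. Ppara, the receptor itself, was at 59.0 (CD), 50.1 (CD+7KC), 52.3 (WD) and 42.3 FPKM (WD+7KC). Within each diet the 7KC library was the lower, as for Cpt1a, but WD was below CD on the deposited scale, unlike Cpt1a. Sirt3, the mitochondrial deacetylase, was at 82.3, 78.4, 63.2 and 46.6 FPKM, so both WD libraries were below both CD libraries. Ppargc1a, the PPAR coactivator, was at 1.33, 1.54, 1.09 and 1.37 FPKM.

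By the root mean square difference of the log2 levels over the 4 libraries, each centred on its own mean, the genes most like Cpt1a among the 4671 genes averaging 10 FPKM or more were Agtr1a, Srd5a3, Prelp, Lims2 and Ifngr2. Their distances were 0.028 to 0.048. The nearest member was Hadhb, at 0.152 in place 272. For the mean of the 10 members, the nearest genes included Osgep, Tomm6, Taf9 and Churc1, at 0.0094 to 0.012. With 4 libraries, 1155 genes lay within 0.1 of that mean, so its pattern was common.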

How the data were processed

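RNA sequencing was performed by the authors on 4 liver libraries (TruSeq stranded mRNA, 75-base single-end reads, Illumina). The authors used TopHat2 2.0.13, Bowtie2 2.2.3 and SAMtools 0.1.19 with mm10 and computed FPKM with Cufflinks 2.2.1, according to the submitters' processing notes. The deposited files list each gene symbol with its FPKM, without counts. The annotation and the Cufflinks options were not given in the sources used here. From the deposited FPKM, log2 fold changes of FPKM plus a pseudocount of 0.1 were taken for genes averaging 1 FPKM or more, which understates changes of weakly expressed genes. Depth was estimated from the steps of low values, 73.0% to 74.6% of which came within 0.1 of a whole read number. Reads were obtained from the depth and the RefSeq transcript length less 200 bases, and 95% exact counting intervals (Poisson for levels, Clopper-Pearson for folds) were computed from them. Intervals were given only for genes with transcripts of like length. Scripts (Python 3.11.15, numpy 2.4.6, pandas 2.3.3, scipy 1.17.1) were tested on simulated data. Coordinates are from GENCODE vM21 and sequences from RefSeq (GRCm38.p6), which held all 10 members.

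Groups were taken from the sample labels. A gene counted as higher or lower by the sign of its log2 fold change, with 0.25 and 1 as fold thresholds. The genes that could be named were all 10 members, all genes above 0 of the lists of other mitochondrial, carnitine, regulator and ketogenic genes, the highest and lowest gene of each other list in each comparison, and the 5 genes nearest in pattern; some of these are not reported here. The members and lists were chosen with earlier results of these data known, and the motifs GGGCGG and CCAAT after the sequences were seen. Each group had 1 library, so no test was run and no count model was used. Alternatives were other pseudocounts, filters and scalings.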

Additional observations from a re-analysis of the deposited data

Results flagged for a closer look

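For 5 members on the deposited scale, the difference with 7KC had the opposite sign on the 2 diets, as it had for 46.3% of all genes. The log2 fold change on WD and on CD was -0.331 and 0.0391 for Slc25a20, -0.321 and 0.0291 for Acadm, -0.212 and 0.00146 for Acadvl, -0.0404 and 0.00617 for Hadhb, and -0.249 and 0.00694 for Ech1. On CD the counting intervals of all 5 included 0. At equal sums Acadvl (0.0048 and 0.041) and Hadhb (0.18 and 0.05) had the same sign on both diets. For 3 members on the deposited scale, the difference between WD and CD had the opposite sign without and with 7KC, as it had for 31.5% of all genes. It was 0.356 and -0.0138 for Slc25a20, 0.115 and -0.0977 for Acadvl, and 0.169 and -0.0864 for Ech1. At equal sums all 3 were above 0 in both, with 0.39 and 0.20 for Slc25a20, 0.15 and 0.11 for Acadvl, and 0.20 and 0.12 for Ech1. The differences between these effects were not tested, since each group had 1 library. All 4 libraries enter both sets of values, so the second set is not independent of the first.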

How the results depend on the processing

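No paired analysis was possible because each group had 1 library. Pseudocounts of 1 and 0.01 FPKM and median-ratio scaling hardly changed the median and left the number of lower members the same in all 4 comparisons. Median-ratio scaling shifted log2 fold changes by only 0.00093 in WD+7KC relative to WD and -0.0023 in WD relative to CD. It left the deposited values almost as they were, so it is no separate check of them. Upper-quartile scaling moved the median from -0.22 to -0.19 in WD+7KC relative to WD. In WD+7KC relative to CD+7KC it moved the median from -0.026 to 0.0069 and the lower members from 6 to 5. No member past 0.25 in either direction changed sign under any alternative scaling or pseudocount, but the shifts were too small to allow it. A scaling shifts every log2 fold change of a comparison alike, by at most 0.22 in WD+7KC relative to WD and 0.17 in WD relative to CD. In WD+7KC relative to CD+7KC the largest shift was 0.26, against values of -0.51 for Acadm and -0.52 for Eci1. Other scalings moved the median or the number of lower members further. In WD+7KC relative to WD the members' median was -0.0073 at equal sums, with 5 members lower, -0.049 when the 20 most abundant genes were left out of the sums, and -0.037 when libraries were scaled to the hepatocyte markers. In CD+7KC relative to CD 2 members were lower at equal sums and 1 with hepatocyte scaling, with a median of 0.10. In WD relative to CD the median was 0.41 with hepatocyte scaling, with 0 members lower. In WD+7KC relative to CD+7KC the median was 0.18, 0.17 and 0.24 under the 3 scalings, with 2 members lower in each. The share of all genes past 0.25 depended on the filter. In WD+7KC relative to WD it was 19.4% above 0.25, and 6.74% among genes averaging 10 FPKM or more. Below -0.25 these shares were 19.6% and 25.6%. With the 10 FPKM filter, 21.1% were above 0.25 and 18.8% below -0.25 in WD relative to CD. In WD+7KC relative to CD+7KC they were 16.8% and 30.1%. The depth limits a member's log2 fold change to about 0.05 to 0.1 on either side, which is counting error only, and the spread between mice is unknown.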

Other observations

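Among 12 further known PPARα targets, which are not enzymes of the pathway itself, 8 were lower and 4 higher in WD+7KC than in WD. Of all genes 54.5% were lower. At equal sums 4 of the 12 were lower, against 23.7% of all genes. The median log2 fold change was -0.05, or 0.16 at equal sums. Fabp1, the fatty acid carrier of hepatocytes, was at 19129 (CD), 15788 (CD+7KC), 18683 (WD) and 13842 FPKM (WD+7KC), the largest decrease of the list. Pdk4, which restrains glucose oxidation, was at 12.6, 9.38, 7.08 and 10.5 FPKM, so that WD was the lowest library. Plin5, a lipid droplet coat protein, was at 35.7, 51.0, 60.5 and 51.9 FPKM, and CD was the lowest. Cyp4a10, a fatty acid hydroxylase, was at 221 and 245 FPKM on CD and CD+7KC and at 149 and 142 FPKM on WD and WD+7KC. Both WD libraries were thus below both CD libraries, but the libraries of a diet differ in 7KC and are not replicates. Acot1 and Acot2 are near-identical copies and their values are uncertain.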
